A study of Mus musculus with 29 samples.

Results

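The genes described here mark the interneurons of the striatum, the small population of locally projecting neurons that surrounds its projection neurons. The 9 genes, chosen by name, were Chat, Slc5a7 and Lhx8 for cholinergic cells, Pvalb for parvalbumin cells, Sst, Npy and Nos1 for somatostatin cells, Calb2 for calretinin cells and Th, and they were 9 of 19938 genes tested. Each gene was read by the probe set annotated with its symbol alone, and each had exactly 1 such probe set, so that the rule of keeping the brightest probe set made no choice. RNA of the caudate nucleus was measured in 29 mice, 1 array each. HdhQ150 mice, which model Huntington's disease through an expanded CAG repeat knocked into their own Htt gene, numbered 5 at 6 months, 6 at 12 months and 4 at 18 months. Their wild-type littermates, without the repeat, numbered 5, 5 and 4 at the same ages. All mice were on the strain background labelled 129/Ola x C57BL6/J, none received a treatment per the labels, and no mouse was measured at more than 1 age. By label 6 mice were male, none of them at 18 months, and 23 female. The knock-in sits in every cell of the animal, and whether 1 or both alleles carried it is not given in the sources used here.

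RefSeq on GRCm38.p6 places the cholinergic genes Chat (probe set 10418817) at chr14:32408203-32465909, Slc5a7 (probe set 10451838) at chr17:54273590-54299038 and Lhx8 (probe set 10502961) at chr3:154306288-154330560. The parvalbumin gene is Pvalb (probe set 10430297) at chr15:78191112-78206400. The somatostatin class comprises Sst (probe set 10438730) at chr16:23889573-23891342, Npy (probe set 10538247) at chr6:49822710-49829507 and Nos1 (probe set 10524909) at chr5:117866839-117958840. The remaining genes are Calb2 (probe set 10581654) at chr8:110142526-110168212 and Th (probe set 10569370) at chr7:142892779-142899995.

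Striatal interneurons control the projection neurons rather than sending output themselves. Cholinergic interneurons are large cells that fire tonically and release acetylcholine. Parvalbumin cells fire fast and inhibit projection neurons at the cell body, somatostatin cells release peptides and nitric oxide onto dendrites, and calretinin cells are sparse. In Huntington's disease the projection neurons are the cells most affected, while cholinergic and somatostatin interneurons are described as comparatively spared and parvalbumin interneurons as reduced late. Several of these genes also mark cells outside the striatum: Sst, Npy, Pvalb and Calb2 are carried by cortical interneurons, Calb2 also by thalamic neurons, and Chat, Slc5a7 and Lhx8 by neurons of the basal forebrain. In bulk tissue, fewer cells of a type and less RNA per cell cannot be told apart.

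The promoters of the somatostatin class are shown because their genes are used together by the same striatal cells, and because between 6 and 12 months Sst and Npy were both called lower in HdhQ150 mice while Nos1 was not called. Each sequence runs 5′ to 3′ on the gene's strand, from 250 bases before to 50 bases after a transcription start given by RefSeq on GRCm38.p6. For Sst that start lies inside the span of the gene given above, not at its outer end. Capitals mark the cyclic AMP response element TGACGTCA, which reads the same on both strands, or its 5-base core TGACG or CGTCA where only that core is present. The Sst promoter lies at chr16:23890795-23891094 on the minus strand, the Npy promoter at chr6:49822460-49822759 on the plus strand and the Nos1 promoter at chr5:117866589-117866888 on the plus strand.
Sst: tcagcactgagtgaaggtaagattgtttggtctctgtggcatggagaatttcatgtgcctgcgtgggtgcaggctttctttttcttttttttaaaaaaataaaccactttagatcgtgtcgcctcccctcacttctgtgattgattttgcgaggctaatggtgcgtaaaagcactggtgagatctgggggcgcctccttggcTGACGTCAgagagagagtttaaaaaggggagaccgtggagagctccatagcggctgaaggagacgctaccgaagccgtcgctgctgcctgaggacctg
Npy: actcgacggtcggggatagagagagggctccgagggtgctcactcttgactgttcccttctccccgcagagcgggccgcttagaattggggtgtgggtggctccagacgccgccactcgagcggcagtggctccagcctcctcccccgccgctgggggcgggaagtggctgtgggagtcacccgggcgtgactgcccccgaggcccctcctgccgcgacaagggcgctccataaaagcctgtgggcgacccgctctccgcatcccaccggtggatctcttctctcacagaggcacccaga
Nos1: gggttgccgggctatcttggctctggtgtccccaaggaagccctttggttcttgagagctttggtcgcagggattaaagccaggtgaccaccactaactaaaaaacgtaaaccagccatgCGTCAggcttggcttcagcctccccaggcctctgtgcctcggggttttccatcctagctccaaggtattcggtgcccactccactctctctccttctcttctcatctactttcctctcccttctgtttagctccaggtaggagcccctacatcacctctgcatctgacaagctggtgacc
The element in Sst starts 48 bases before the transcription start, the Nos1 promoter holds the core alone with its first base 130 before the start, and the letters of neither are in the Npy window. Among the 9 promoters at hand for 8 of the members (2 of them for Pvalb, with that of Calb2 not analysed here), the whole element stands in Sst and, 45 bases before the start, in Th, and the core alone in Nos1 and Chat. Of all 32851 mouse promoters of this length, 1.79% hold the whole element and 20.8% hold the core, counted on both strands and with the whole element included in the core's share. These matches describe letters only.

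All levels below are RMA values on the log2 scale as the authors deposited them, so that a difference of 1 is a factor of 2, and levels are compared for 1 gene between groups, never between genes. Differences were fitted with limma over all 29 arrays with a mean for each group and a term for the labelled sex. Positive differences mean higher in HdhQ150 mice, or in the older mice. A gene was called where its p, after Benjamini-Hochberg adjustment for all 19938 genes, was under 0.05. Htt, which checks the labels, was lower in HdhQ150 mice at 6 months (-0.39, SE 0.0619, limma adjusted p 0.00457) and at 12 months (-0.42, SE 0.0589, adjusted p 0.000122), while at 18 months the difference was -0.32 (SE 0.0684, adjusted p 0.0523). Mouse WT-454, a wild type of 12 months, correlated with the arrays of its group at 0.9586 on average, against at most 0.9856 for the others of that group. HdhQ150 mouse 1023 at 6 months, labelled female, had the sex-linked genes Xist at 5.95 and Eif2s3y at 8.3, which does not match its label. Where leaving these 2 mice out changes the call of a member, that is said beside it.

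The labelled tissue was checked against markers of its cells. Ppp1r1b, the DARPP-32 gene of striatal projection neurons, had group means of 10.79 to 11.69. Slc17a7, the vesicular glutamate transporter of cortical excitatory neurons, which striatal neurons do not use, was measured as well and varied with age. Its mean in HdhQ150 mice was 11.14 ± 0.414 at 6 months, 8.68 ± 1.37 at 12 months and 11.28 ± 0.306 at 18 months, and in wild-type mice 11.13 ± 0.311, 9.74 ± 0.852 and 11.45 ± 0.455 at the same ages (SD, n = 5, 6 and 4 in HdhQ150 and 5, 5 and 4 in wild type). The mean of 11 cortical excitatory neuron markers, each centred on its own mean over the mice, behaved likewise. It ranged from -1.25 to -0.3 in HdhQ150 mice and from -0.88 to 0.02 in wild-type mice at 12 months. At 6 months it lay between -0.1 and 0.62 in HdhQ150 mice and between 0.15 and 0.73 in wild-type mice, and at 18 months between 0.06 and 0.84 in HdhQ150 mice and between 0.27 and 0.85 in wild-type mice. The samples taken at 12 months thus carried less of the cortical markers than those at 6 and 18 months in both genotypes. The mean of 13 projection neuron markers ran the other way with age, at -0.17, 0.17 and -0.55 in HdhQ150 mice and 0.04, 0.46 and -0.13 in wild-type mice at 6, 12 and 18 months. Each age difference of a member that was called with all mice is therefore also given with the cortical marker mean of each array as a covariate. The age differences of the other genes named below are given without it.

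No interneuron marker differed between HdhQ150 and wild-type mice at the threshold at any age. At 6 months 0 of 9 members were called in limma, against 0.0251% of all genes. At 12 months the count was 0 of 9 against 0.938%, at 18 months 0 of 9 against 0.135%, and with the 3 ages averaged 0 of 9 against 3.06%. At these background shares a list of 9 would hold few calls or none, so that the counts by themselves say little about interneurons, and the intervals say more. Without adjustment, 2 members at 6 months and none at 12 months, at 18 months or averaged had p under 0.05, while 2738, 1790, 1159 and 2838 of all genes did. Each member's HdhQ150 and wild-type values overlapped at every age, while 3.18% of all genes at 6 months, 1.59% at 12 months and 3.7% at 18 months had groups that did not overlap. The members' median difference was 0.026 at 6 months, -0.085 at 12 months and -0.063 at 18 months, beside 0.0062, 0.0059 and -0.0037 for all genes.

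**Figure D1:**
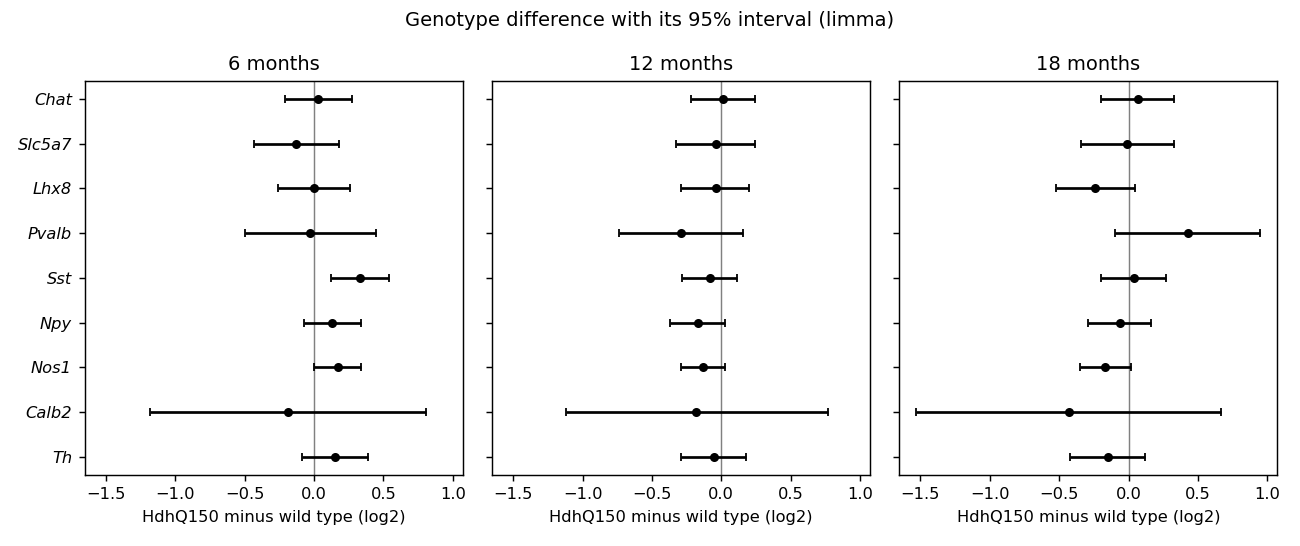
Difference in log2 level between HdhQ150 and wild-type mice (horizontal axis, HdhQ150 minus wild type) for the 9 interneuron markers at 6, 12 and 18 months, with points for the limma estimate and bars for its 95% interval. The interval of Sst at 6 months lies between 0.12 and 0.54, and Calb2 has the widest intervals at each age.

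The intervals were widest for Calb2. For the other 8 members the farther end of the 95% interval corresponded to 1.18-fold to 1.93-fold over the 3 ages, with 1.93-fold for Pvalb at 18 months. For Calb2 it reached 2.27-fold, 2.18-fold and 2.88-fold at 6, 12 and 18 months. In the same samples 4 of 13 measured markers of projection neurons (Penk, Pde10a, Gpr6 and Scn4b) were called lower in HdhQ150 mice at 12 months, with a list median of -0.291. At that age the members' intervals reached down to -0.33 for Slc5a7, -0.37 for Npy, -0.74 for Pvalb and -1.12 for Calb2, past that median. They ended at -0.29 for Lhx8, Nos1 and Th, -0.28 for Sst and -0.22 for Chat. At 12 months a difference of the size of that median is thus not excluded for several members. At 18 months 4 of the 13 were called lower, against 0.135% of all genes, with a list median of -0.443. The lower interval ends passed that median for Lhx8 (-0.52) and Calb2 (-1.53) and for no other member. Averaged over the ages 9 of the 13 were called lower, against 3.06%, with a median of -0.313. There the lower end passed it for Calb2 (-0.85), and for the others it lay between -0.24 and -0.03.

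The largest genotype difference relative to its error was that of Sst at 6 months. Sst, the peptide somatostatin, stood at 11.86, 11.82, 11.94, 11.9 and 11.54 in the HdhQ150 mice and at 11.31, 11.79, 11.66, 11.46 and 11.25 in the wild-type mice. Of the HdhQ150 mice, 4 lay above every wild-type mouse, and the lowest, mouse 1023, lay within the wild-type range. The log2 difference of 0.33 (SE 0.102, 95% interval 0.12 to 0.54) had an unadjusted p of 0.00308 but a limma adjusted p of 0.164. It was called with array weights (0.34, adjusted p 0.0307) and with mice 1023 and WT-454 left out (0.39, adjusted p 0.0311). The share of all genes called at this age was then 6.67% and 4.35%. Nos1, the neuronal nitric oxide synthase made by the same cells, had at this age a difference of 0.17 (SE 0.0828, unadjusted p 0.0462, limma adjusted p 0.352), and Npy one of 0.13 (SE 0.101, adjusted p 0.593).

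At 12 months these 3 genes had differences below 0: Sst -0.08 (SE 0.0971), Npy -0.17 (SE 0.0958) and Nos1 -0.13 (SE 0.0788), with limma adjusted p of 0.946, 0.682 and 0.719. The change of the genotype difference between 6 and 12 months was -0.41 for Sst (SE 0.142, unadjusted p 0.00674, adjusted p 0.709), -0.31 for Nos1 (SE 0.115, unadjusted p 0.0127, adjusted p 0.709) and -0.3 for Npy (SE 0.14, unadjusted p 0.0395, adjusted p 0.741). None passed in limma. For the change of the difference, 0 of 9 members were called between 6 and 12 months, against 0.00502% of all genes. Between 12 and 18 months and between 6 and 18 months 0 of 9 were called, against 0% of all genes in each. Without adjustment 3 members had p under 0.05 between 6 and 12 months, 1 between 12 and 18 months and 1 between 6 and 18 months, beside 1297, 412 and 1629 of all genes.

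More of these genes were called between ages than between genotypes. In HdhQ150 mice 4 of 9 members were called lower at 12 than at 6 months and 0 higher, in a comparison that called 23.1% of all genes. Between 12 and 18 months 1 was higher and 2 were lower at 18 months, against 5.79%, and between 6 and 18 months 1 was lower, against 4.65%. In wild-type mice 1 was higher and 1 lower at 12 than at 6 months, against 25.7%. There, 3 were lower at 18 than at 12 months, against 5.87%, and 0 of 9 were called between 6 and 18 months, against 6.27%, with 2 of the 9 at an unadjusted p under 0.05 beside 4506 of all genes. A member called in 1 genotype and not in the other is not shown to differ between them, since no change of the genotype difference was called. No batch is named in the sources used here, so age and the processing of the arrays cannot be told apart. Where ages of a member are said below not to overlap, the share of all genes that did likewise was not counted. Such a separation is therefore not shown to be particular to that member.

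**Figure D2:**
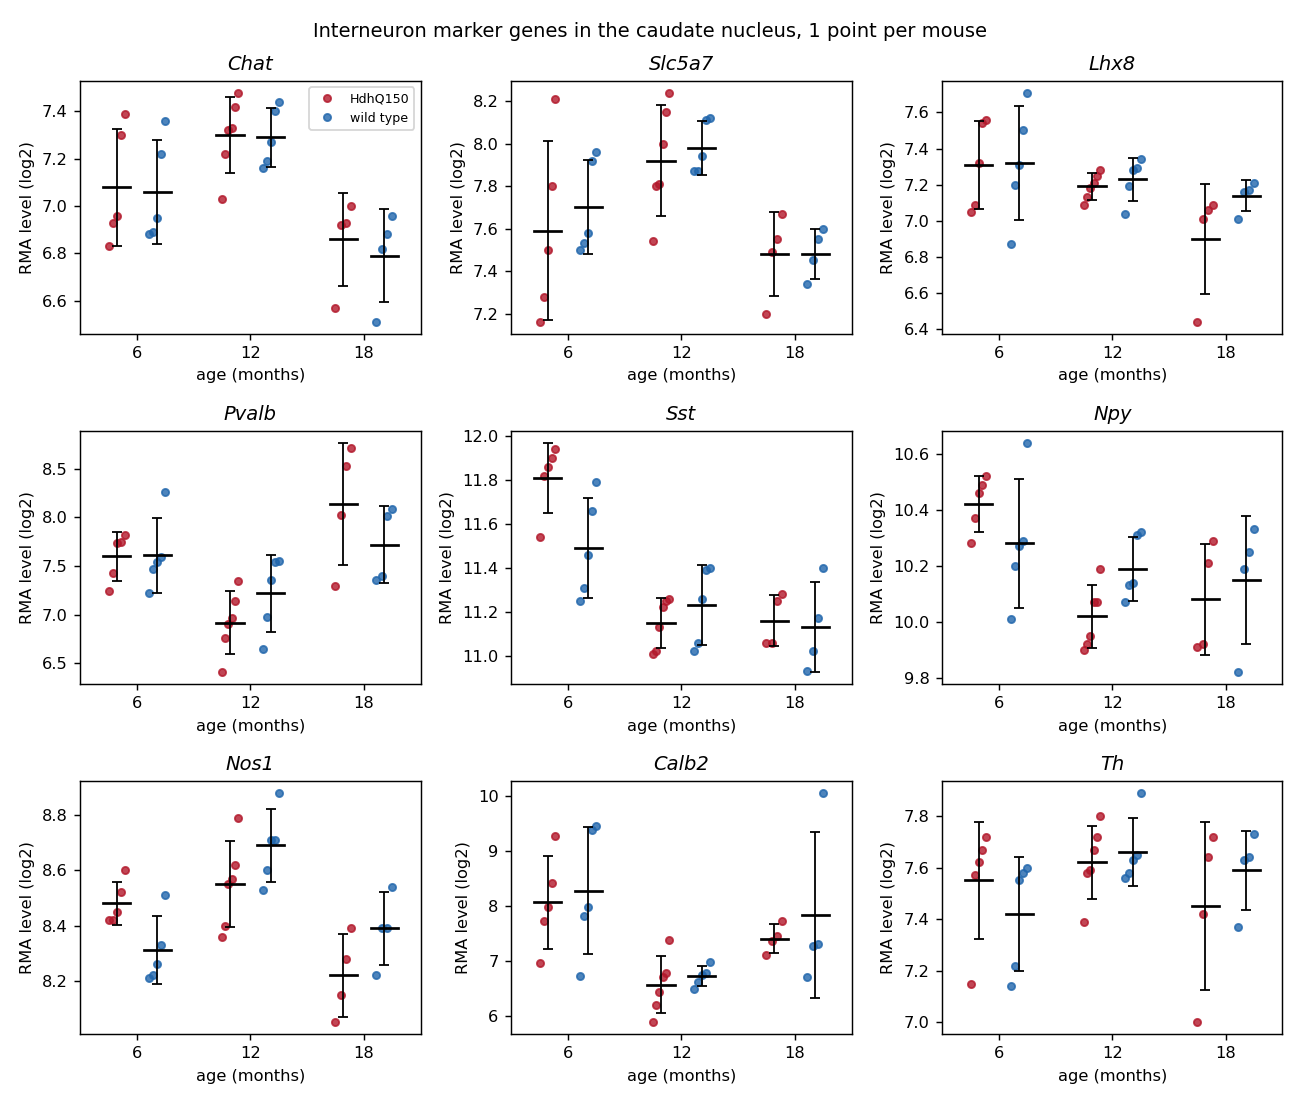
RMA log2 level (vertical axis, its own scale for each gene) of the 9 interneuron markers by age in months, with 1 point per mouse, HdhQ150 left and wild type right at each age, and black lines for the group mean and SD. The genotypes overlap at every age, Sst is highest in HdhQ150 mice at 6 months (mean 11.81), and Calb2 reaches 10.05 in 1 wild-type mouse at 18 months.

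Among cholinergic genes, Chat encodes choline acetyltransferase, which makes acetylcholine. In HdhQ150 mice it stood at 7.39, 6.96, 6.93, 6.83 and 7.3 at 6 months, between 7.03 and 7.48 with a median of 7.32 at 12 months, and at 6.93, 6.57, 6.92 and 7 at 18 months. In wild-type mice it stood at 7.22, 6.88, 6.89, 7.36 and 6.95 at 6 months, at 7.4, 7.16, 7.44, 7.27 and 7.19 at 12 months, and at 6.96, 6.51, 6.88 and 6.82 at 18 months. In each genotype every mouse of 18 months lay below every mouse of 12 months. Chat fell by 0.44 in HdhQ150 mice (SE 0.122, limma adjusted p 0.026) and by 0.5 in wild-type mice (SE 0.125, adjusted p 0.0119) at 18 against 12 months. Its genotype difference was 0.03, 0.01 and 0.07 at 6, 12 and 18 months (SE 0.118, 0.112 and 0.13), with 95% intervals from -0.22 to 0.33 in all. Over these ages the cortical marker mean was higher at 18 months and the projection neuron mean lower. With the cortical covariate the age differences were -0.05 (SE 0.167, adjusted p 0.981) in HdhQ150 and -0.17 (SE 0.154, adjusted p 0.886) in wild type. Leaving out HdhQ150 mouse 412, 487 or 526 also ended the call in HdhQ150 mice (adjusted p 0.184, 0.076 and 0.054). So did labelled females alone (-0.43, adjusted p 0.055) and all probe sets (-0.44, adjusted p 0.0558). Leaving out wild-type mouse WT-401 ended the call in wild type (-0.4, adjusted p 0.0896).

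Slc5a7, the transporter that returns choline to cholinergic terminals, ran from 7.16 to 8.24 over the mice. Its means were 7.59 ± 0.422, 7.92 ± 0.259 and 7.48 ± 0.199 in HdhQ150 mice and 7.7 ± 0.222, 7.98 ± 0.127 and 7.48 ± 0.116 in wild-type mice at 6, 12 and 18 months (SD, n = 5, 6 and 4 in HdhQ150 and 5, 5 and 4 in wild type). Both genotypes were highest at 12 months. At 18 against 12 months the difference was -0.48 in HdhQ150 mice (SE 0.153, limma adjusted p 0.0628), and Slc5a7 fell by 0.52 in wild-type mice (SE 0.156, adjusted p 0.0438). The wild-type call held in 24 of 41 alternatives. It was lost without HdhQ150 mouse 426 or 451 and without WT-400, WT-401, WT-414, WT-431, WT-461, WT-488, WT-508, WT-527, WT-1004 or WT-1018 (adjusted p 0.0503 to 0.159), and with the cortical covariate the difference was 0.02 (SE 0.17, adjusted p 0.995). The HdhQ150 difference was called in 6 of 41 alternatives, among them without mice 1023 and WT-454 (-0.46, adjusted p 0.025), without mouse 1023, 462 or WT-1002 alone (adjusted p 0.028, 0.0206 and 0.0417) and with array weights. At 12 against 6 months in HdhQ150 mice the difference of 0.35 (SE 0.14, adjusted p 0.0732) was not called with all mice, but it was without mice 1023 and WT-454 (0.49, adjusted p 0.00504), without mouse 1023 or 462 alone (adjusted p 0.00595 and 0.0239) and with array weights (0.42, adjusted p 0.0129). Its genotype difference was -0.13, -0.04 and -0.01 at 6, 12 and 18 months.

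Lhx8, the LIM homeobox factor that specifies cholinergic neurons, ran from 6.44 to 7.71. At 18 months it stood at 7.09, 6.44, 7.01 and 7.06 in HdhQ150 mice and at 7.16, 7.01, 7.21 and 7.17 in wild-type mice. The low HdhQ150 value is that of mouse 412, and the other HdhQ150 values reached into the wild-type range. The genotype difference at 18 months was -0.24 (SE 0.139, 95% interval -0.52 to 0.05, limma adjusted p 0.951). No age comparison of Lhx8 was called. The difference at 18 against 6 months in HdhQ150 mice was -0.4 (SE 0.134, adjusted p 0.0793). With the cortical covariate 3 of its age differences were called. They were those at 12 against 6 months in HdhQ150 (-0.62, adjusted p 0.0394) and wild-type mice (-0.48, adjusted p 0.0366) and at 18 against 6 months in HdhQ150 mice (-0.38, adjusted p 0.0322). The last was also called with labelled females alone (-0.48, adjusted p 0.0278), without mouse 1003 (-0.48, adjusted p 0.0357) and without WT-1011 (-0.41, adjusted p 0.041).

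Of the 14 other cholinergic genes measured, 0 were called between genotypes at any age or averaged. Ache, acetylcholinesterase, which breaks acetylcholine down, had a difference of 0.2 averaged over the ages (SE 0.0633, limma adjusted p 0.0818), with 0.21, 0.19 and 0.21 at 6, 12 and 18 months. Isl1, a homeobox factor of cholinergic cells, averaged a difference of 0.11 (SE 0.0729, adjusted p 0.57). Slc17a8, the vesicular glutamate transporter that cholinergic interneurons also use, fell at 18 against 12 months by 0.33 in HdhQ150 mice (adjusted p 0.0355) and by 0.35 in wild-type mice (adjusted p 0.0263). It was the only cholinergic list gene called lower in that comparison in either genotype. There 1 gene of the list was called higher in HdhQ150 mice and 0 in wild-type mice. That comparison called 5.79% of all genes in HdhQ150 and 5.87% in wild-type mice. The list's median there was -0.09 in HdhQ150 mice and -0.043 in wild-type mice, beside -0.02 and -0.011 for all genes. At 12 against 6 months 1 gene was higher and 1 lower in HdhQ150 mice, against 23.1% of all genes. In wild-type mice 1 was higher and 0 lower, against 25.7%. At 18 against 6 months 2 were higher and 0 lower in HdhQ150 mice, against 4.65%, and 0 were called in wild-type mice, against 6.27%.

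Pvalb encodes parvalbumin, the calcium buffer of fast-spiking interneurons. Its levels at 6 months were 7.24, 7.82, 7.74, 7.43 and 7.75 in HdhQ150 mice and 7.59, 7.22, 8.26, 7.54 and 7.47 in wild-type mice. At 12 months HdhQ150 mice lay between 6.41 and 7.35 with a median of 6.94, and wild-type mice at 7.36, 6.98, 7.54, 7.55 and 6.65. At 18 months the levels were 8.03, 8.71, 7.3 and 8.53 in HdhQ150 mice and 7.4, 8.09, 7.36 and 8.02 in wild-type mice. Both genotypes had their lowest mean at 12 months, and at 18 months the mice spread widely. In HdhQ150 mice Pvalb fell by 0.67 at 12 against 6 months (SE 0.22, limma adjusted p 0.027) and rose by 1.21 at 18 against 12 months (SE 0.24, 95% interval 0.72 to 1.7, adjusted p 0.00183), a 2.31-fold difference.

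In wild-type mice the Pvalb differences over the same steps were -0.41 (SE 0.231, adjusted p 0.189) and 0.49 (SE 0.244, adjusted p 0.332). The change of the genotype difference between 12 and 18 months was 0.71 (SE 0.336, unadjusted p 0.0425, limma adjusted p 1). The genotype difference itself was -0.03, -0.29 and 0.43 at 6, 12 and 18 months (SE 0.231, 0.22 and 0.255; adjusted p 0.978, 0.835 and 0.961). After the cortical covariate was added, the HdhQ150 differences were -0.45 (SE 0.348, adjusted p 0.637) at 12 against 6 months and 0.98 (SE 0.372, adjusted p 0.486) at 18 against 12 months. The first call held in 33 of 41 alternatives and the second in 40 of 41. Leaving out HdhQ150 mouse 453, 462, 526, 1003, 1016 or 1023 each ended the call at 12 against 6 months (adjusted p 0.0512 to 0.105).

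Some of the other genes of fast-spiking cells were called with age. Of 13 measured, 5 were called lower and 1 higher at 12 against 6 months in HdhQ150 mice, and 5 lower and 0 higher in wild-type mice, in comparisons that called 23.1% and 25.7% of all genes. Kcnc2, a potassium channel subunit that lets these cells fire fast, fell by 1.18 in HdhQ150 mice (SE 0.157, limma adjusted p 6.15e-06) and by 0.99 in wild-type mice (SE 0.165, adjusted p 0.000117). Kcnc1, Erbb4, Crtac1 and Cplx1 fell in both genotypes as well. At 18 against 12 months 4 rose in each genotype and 1, Tac1, fell in HdhQ150 mice, against 5.79% and 5.87% of all genes. Tac1 also stands on the list of projection neuron markers, of which 12 of 13 were called lower in HdhQ150 mice at that step. Kcnc2 was higher by 1.38 in HdhQ150 (limma adjusted p 1.13e-05) and 0.88 in wild type (adjusted p 0.00154). At 18 against 6 months 1 gene of the fast-spiking list was called, lower, in HdhQ150 mice and 0 in wild-type mice. These genes are also used by cortical neurons, whose markers moved the same way over these ages. Between genotypes 0 of 13 were called at any age or averaged, with list medians of 0.045, -0.006 and -0.014 at 6, 12 and 18 months.

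Within the somatostatin class, Sst was the gene that moved most firmly with age in HdhQ150 mice, but not in wild-type mice. In HdhQ150 mice it lay between 11.54 and 11.94 at 6 months, between 11.01 and 11.26 with a median of 11.18 at 12 months, and at 11.28, 11.06, 11.25 and 11.06 at 18 months. Every HdhQ150 mouse of 12 or 18 months lay below every HdhQ150 mouse of 6 months. Sst fell in HdhQ150 mice by 0.67 at 12 against 6 months (SE 0.0971, 95% interval -0.87 to -0.47, limma adjusted p 1.75e-05), a 1.59-fold difference, and by 0.64 at 18 against 6 months (SE 0.108, 95% interval -0.86 to -0.41, adjusted p 0.000971). Between 12 and 18 months the difference was 0.03 (SE 0.106, adjusted p 0.892). In wild-type mice Sst stood at 11.39, 11.4, 11.26, 11.06 and 11.02 at 12 months and at 11.4, 11.02, 11.17 and 10.93 at 18 months. The wild-type ages overlapped, with differences of -0.26 at 12 against 6 months (SE 0.102, adjusted p 0.0636) and -0.34 at 18 against 6 months (SE 0.111, adjusted p 0.0613). Without mice 1023 and WT-454 both wild-type differences were called (-0.31, adjusted p 0.0461, and -0.36, adjusted p 0.0345). The first was called in 5 of 41 alternatives, among them without WT-461, WT-1002 or WT-1020, and the second in 8 of 41, among them without WT-400, WT-454, WT-1002 or 1023 and with the cortical covariate.

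The Sst difference at 18 against 6 months in HdhQ150 mice was called in all 41 alternatives run, at -0.71 to -0.6 with adjusted p up to 0.0107. The cortical marker means at these 2 ages were close in HdhQ150 mice, at 0.4 at 18 months and 0.33 at 6 months. With the cortical covariate the difference was -0.65 (SE 0.104, adjusted p 0.000464). The difference at 12 against 6 months was called in 40 of 41, the exception being the cortical covariate (-0.48, SE 0.148, adjusted p 0.119). The change of the genotype difference between 6 and 18 months was -0.29 for Sst (SE 0.152, limma adjusted p 0.624), so that no difference between the genotypes in this age change was called.

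Npy, neuropeptide Y, is released by the same cells. At 6 months it stood at 10.28, 10.52, 10.49, 10.46 and 10.37 in HdhQ150 mice and at 10.01, 10.29, 10.64, 10.27 and 10.2 in wild-type mice. At 12 months it lay between 9.9 and 10.19 with a median of 10.01 in HdhQ150 mice, and at 10.31, 10.32, 10.13, 10.14 and 10.07 in wild-type mice. The HdhQ150 mice of 12 months all lay below those of 6 months, while the wild-type ages overlapped. At 18 months it stood at 9.91, 10.29, 10.21 and 9.92 in HdhQ150 mice and at 10.19, 10.25, 10.33 and 9.82 in wild-type mice, which overlapped. Npy fell by 0.4 in HdhQ150 mice at 12 against 6 months (SE 0.0958, limma adjusted p 0.00313), and the wild-type difference was -0.1 (SE 0.101, adjusted p 0.478). With the cortical covariate the HdhQ150 difference was -0.07 (SE 0.13, adjusted p 0.879). The HdhQ150 difference at 18 against 6 months was -0.35 (SE 0.107, adjusted p 0.0528), and with the cortical covariate it was -0.37 (adjusted p 0.0152), which passed. It also passed without mice 1023 and WT-454 (-0.38, adjusted p 0.0318), and in 8 of 41 alternatives in all, among them without mouse 412, WT-431, WT-454 or WT-1011.

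Nos1 took another course. Its means were 8.48 ± 0.077, 8.55 ± 0.154 and 8.22 ± 0.151 in HdhQ150 mice and 8.31 ± 0.123, 8.69 ± 0.131 and 8.39 ± 0.132 in wild-type mice at 6, 12 and 18 months (SD, n = 5, 6 and 4 in HdhQ150 and 5, 5 and 4 in wild type). In HdhQ150 mice it stood at 8.6, 8.42, 8.42, 8.45 and 8.52 at 6 months, between 8.36 and 8.79 with a median of 8.56 at 12 months, and at 8.28, 8.05, 8.39 and 8.15 at 18 months. In wild-type mice it stood at 8.51, 8.26, 8.21, 8.33 and 8.22 at 6 months, at 8.6, 8.53, 8.88, 8.71 and 8.71 at 12 months, and at 8.39, 8.22, 8.39 and 8.54 at 18 months. The wild-type mice of 12 months all lay above those of 6 months, while the HdhQ150 mice of these ages overlapped. At 12 against 6 months the Nos1 difference in HdhQ150 mice was 0.07 (SE 0.0788, limma adjusted p 0.558), while Nos1 rose by 0.38 in wild-type mice (SE 0.0828, adjusted p 0.00161). At 18 against 12 months it fell in both, by 0.34 in HdhQ150 (SE 0.0862, adjusted p 0.0145) and by 0.31 in wild type (SE 0.0877, adjusted p 0.032). Over the first step Sst and Npy were thus called lower in HdhQ150 mice, where Nos1 was not called. In wild-type mice Nos1 was called higher, while Sst (-0.26) and Npy (-0.1) were not called. In the fit with the cortical covariate the Nos1 differences were -0.15 in HdhQ150 (adjusted p 0.885) and -0.15 in wild type (adjusted p 0.843) at 18 against 12 months, and 0.24 in wild type (adjusted p 0.178) at 12 against 6 months. At 18 against 6 months the HdhQ150 difference was -0.27 (SE 0.0877, adjusted p 0.0741), not called although these ages did not overlap. It was called with array weights (-0.25, adjusted p 0.0424) and without mouse 415 (-0.33, adjusted p 0.0499). The wild-type difference was 0.07 (adjusted p 0.67). The call at 18 against 12 months was lost in HdhQ150 without mouse 412 or 426 (adjusted p 0.106 and 0.0625) and with only the groups compared (adjusted p 0.0588). In wild type it was lost without any of WT-527, WT-508, WT-488, WT-414, WT-401 or WT-400 (adjusted p 0.0671 to 0.173) and with all probe sets (adjusted p 0.0619).

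**Figure D3:**
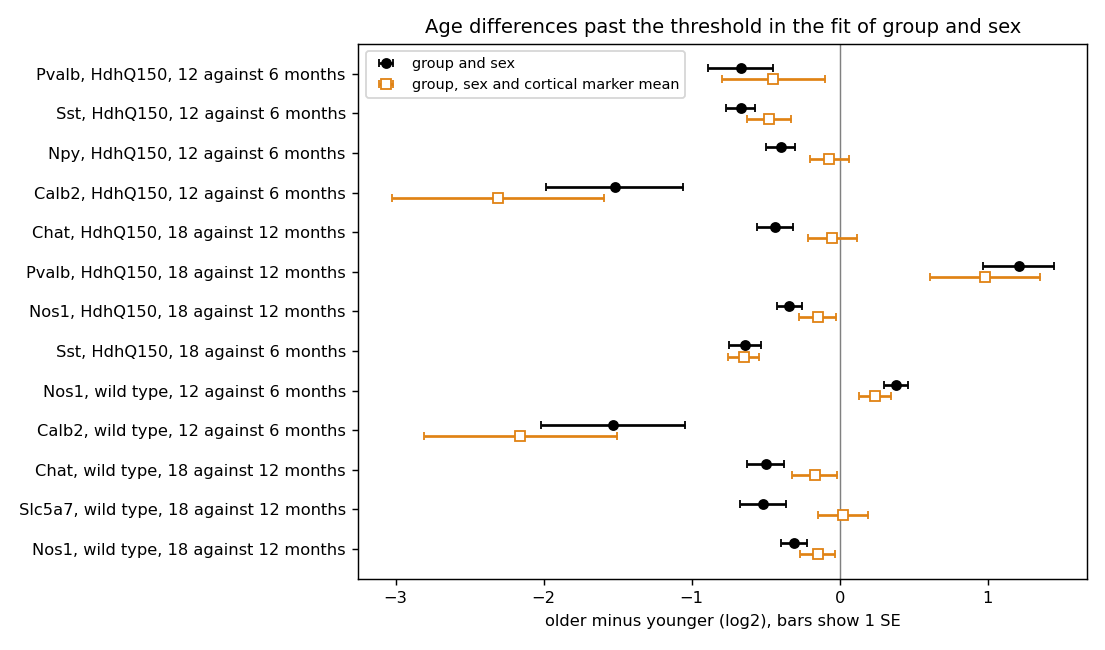
Age differences in log2 level (horizontal axis, older minus younger) that passed the threshold, HdhQ150 above and wild type below, fitted with group and sex (black circles) and with the cortical marker mean added (open squares), with bars of 1 SE. Sst at 18 against 6 months in HdhQ150 mice gave -0.64 and -0.65 in the 2 fits, while Npy at 12 against 6 months gave -0.4 and -0.07.

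Of the 16 other genes of the somatostatin and neuropeptide Y system, 0 were called between genotypes at any age. Averaged over the ages, Npy2r, a receptor of neuropeptide Y, was lower in HdhQ150 mice (-0.28, SE 0.0685, limma adjusted p 0.0219). At 12 against 6 months 6 were called lower and 2 higher in HdhQ150 mice and 3 lower and 3 higher in wild-type mice. These comparisons called 23.1% and 25.7% of all genes. The receptors Npy1r and Sstr1 fell in both, Npy1r by 0.55 in HdhQ150 (adjusted p 0.000291) and 0.67 in wild type (adjusted p 6.11e-05), and Sstr1 by 0.61 (adjusted p 0.000354) and 0.62 (adjusted p 0.000573). Chodl, a membrane protein that marks the cells with both somatostatin and Nos1, rose by 0.35 in HdhQ150 (adjusted p 0.00182) and by 0.3 in wild type (adjusted p 0.00846). Chodl and Npy1r thus moved in opposite directions over the same step.

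Genes of the lineage from the medial ganglionic eminence, the embryonic source of parvalbumin, somatostatin and cholinergic interneurons, and of GABA synthesis were also listed. Of 13 measured, 0 were called between genotypes at any age or averaged. Slc32a1, which loads GABA into vesicles, had an averaged difference of 0.17 (SE 0.0508, limma adjusted p 0.074). At 12 against 6 months 5 were lower and 1 higher in HdhQ150 mice, among them Lhx6, a factor that specifies these cells (-0.28, adjusted p 0.0365), and Satb1 (-0.62, adjusted p 0.0127). In wild-type mice 1 was lower and 1 higher. Over this step 23.1% of all genes were called in HdhQ150 and 25.7% in wild-type mice. At 18 against 12 months 4 were lower and 2 higher in HdhQ150 mice, against 5.79% of all genes. In wild-type mice 4 were lower and 1 higher over that step, against 5.87%. Gad1, the GABA-synthesising enzyme that projection neurons also use, was lower by 0.36 (limma adjusted p 0.0124) in HdhQ150 and 0.3 (adjusted p 0.0458) in wild type.

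Calb2, which encodes the calcium-binding protein calretinin, varied far more between mice than the other members. It ran from 5.88 to 10.05 over the 29 mice with a within-group SD of 0.85, against 0.13 to 0.398 for the other 8. Its levels at 6 months were 7.72, 8.41, 6.96, 9.26 and 7.97 in HdhQ150 mice and 9.38, 7.81, 6.73, 7.98 and 9.45 in wild-type mice. At 12 months it lay between 5.88 and 7.38 with a median of 6.56 in HdhQ150 mice, and at 6.61, 6.49, 6.98, 6.78 and 6.74 in wild-type mice. At 18 months it stood at 7.35, 7.44, 7.1 and 7.72 in HdhQ150 mice and at 7.27, 6.7, 7.3 and 10.05 in wild-type mice. At 12 months all mice of both genotypes were below 7.4. At 6 months mice above 9 occurred in each genotype, and at 18 months mouse WT-431 alone was that high. The mice above 9 at 6 months were HdhQ150 mouse 1017 and wild-type mice WT-1002 and WT-1020. They also had the highest mean of 10 markers of choroid plexus, a tissue within the ventricles, at 1.13, 1.33 and 1.28. That mean was at most 0.32 in every other mouse, and -0.01 in mouse WT-431.

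Calb2 fell at 12 against 6 months by 1.52 in HdhQ150 mice (SE 0.463, limma adjusted p 0.0177) and by 1.53 in wild-type mice (SE 0.487, adjusted p 0.0215), a 2.86-fold and a 2.89-fold difference. With the cortical covariate the differences were -2.31 (SE 0.718, adjusted p 0.119) in HdhQ150 and -2.16 (SE 0.652, adjusted p 0.0447) in wild type. With labelled females alone neither was called (adjusted p 0.11 in HdhQ150 and 0.155 in wild type). The HdhQ150 call was lost without mouse 1003 or 1017 (adjusted p 0.0601 and 0.0631). The wild-type call was lost without WT-1002, WT-1020 or WT-454 (adjusted p 0.068, 0.0988 and 0.0619) and without mice 1023 and WT-454 together (adjusted p 0.0653). After the fit of group and sex, Calb2 correlated with the mean of 9 thalamic markers at r = 0.73 with the mean of 10 pallidum and basal forebrain markers at r = 0.69, with Ttr, the transthyretin gene of choroid plexus, at r = 0.5, and with the cortical mean at r = -0.26 over the 29 arrays. Slc17a6, the glutamate transporter of thalamic and other subcortical neurons, had group means of 6.87, 5.93 and 7.03 in HdhQ150 mice and 7.38, 6.09 and 6.94 in wild-type mice at 6, 12 and 18 months. The part of these markers in the Calb2 differences was not tested.

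Of the 12 other genes of calretinin and caudal interneurons, 7 were called lower and 1 higher at 12 against 6 months in HdhQ150 mice. In wild-type mice 6 were lower and 1 higher. These comparisons called 23.1% and 25.7% of all genes. The list medians were -0.33 and -0.267, beside 0.036 and 0.035 for all genes. Cck, cholecystokinin, fell by 1.79 in HdhQ150 (SE 0.313, limma adjusted p 0.000157) and by 1.27 in wild type (SE 0.329, adjusted p 0.00587). Vip, vasoactive intestinal peptide, fell by 0.67 (adjusted p 0.017) and 0.68 (adjusted p 0.0205). Reln, the secreted protein reelin, was the gene that rose, by 0.4 in HdhQ150 (adjusted p 0.000146) and by 0.43 in wild type (adjusted p 0.000124). Reln was also lower in HdhQ150 than in wild-type mice averaged over the ages (-0.17, SE 0.0424, adjusted p 0.0228). It was the only gene of the list called between genotypes in any of the 4 comparisons, averaged ones included.

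Th encodes tyrosine hydroxylase, the rate-limiting enzyme of dopamine synthesis. Striatal cells with this gene are few, and most of the protein there lies in axons from the midbrain. Th ran from 7 to 7.89, and its group means spanned 0.24, the least of the 9 members. Its means were 7.55 ± 0.226, 7.62 ± 0.141 and 7.45 ± 0.326 in HdhQ150 mice and 7.42 ± 0.221, 7.66 ± 0.132 and 7.59 ± 0.153 in wild-type mice at 6, 12 and 18 months (SD, n = 5, 6 and 4 in HdhQ150 and 5, 5 and 4 in wild type). No comparison called it in limma, with genotype differences of 0.15, -0.05 and -0.15 (SE 0.119, 0.113 and 0.132).

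Slc6a3, the dopamine transporter of midbrain neurons, had group means of 6.87 to 7.16. Of the 13 other genes of dopamine synthesis measured, 0 were called between genotypes at any age. Averaged over the ages, Qdpr, which recycles the cofactor of tyrosine hydroxylase and is also used outside dopamine cells, was lower in HdhQ150 mice (-0.21, SE 0.0456, limma adjusted p 0.00673). At 12 against 6 months 1 was called lower and 0 higher in HdhQ150 mice, and 2 lower and 1 higher in wild-type mice. The shares of all genes called were 23.1% and 25.7%. Nr4a2, a factor of midbrain dopamine neurons also found in cortex, fell by 1.51 at 12 against 6 months in HdhQ150 mice (SE 0.273, adjusted p 0.000228).

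The 6 group means were put in order for each member. For Sst the order from the highest was HdhQ150 at 6 months, wild type at 6 months, wild type at 12 months, HdhQ150 at 18 months, HdhQ150 at 12 months and wild type at 18 months. The gap of 0.317 below HdhQ150 at 6 months and that of 0.268 below wild type at 6 months exceeded the larger of the neighbours' SDs. For Calb2 the gap between HdhQ150 at 18 months and wild type at 12 months, 0.683, did so. Chat was highest in HdhQ150 at 12 months (7.3) and lowest in wild type at 18 months (6.79). The highest and lowest groups were HdhQ150 at 18 months (8.14) and at 12 months (6.92) for Pvalb, and HdhQ150 at 6 months (10.42) and at 12 months (10.02) for Npy. Lhx8 and Nos1 were lowest in HdhQ150 at 18 months (6.9 and 8.22) and highest in wild type at 6 months (7.32) and at 12 months (8.69). Calb2 was lowest in HdhQ150 at 12 months (6.56) and highest in wild type at 6 months (8.27). Slc5a7 and Th were highest in wild type at 12 months, and their lowest groups were both genotypes at 18 months for Slc5a7 and wild type at 6 months for Th. For the other 7 members, and elsewhere in the orders of Sst and Calb2, neighbours in the order lay within the larger SD of each other.

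The genes most alike to each member, by the correlation of residuals after group and sex over the 29 arrays, were named by a fixed rule of 3 each. For Chat they were Slc18a3 (r = 0.89), the transporter that loads acetylcholine into vesicles and whose gene lies within the Chat locus, Dhx32 (0.81) and Tacr1 (0.78). For Slc5a7 they were Dhx32 (0.85), Tacr3 (0.81) and Rac1 (0.78), and for Lhx8 Robo1 (0.85), Gpr149 (0.82) and Isoc1 (0.81). Pvalb had Vamp1 (0.84), Ccdc184 (0.82) and Rims3 (0.76). Vamp1 and Rims3 encode proteins of the synaptic release machinery. For Sst the 3 were E2f4 (0.82), Rbm42 (0.8) and Tesc (0.79), for Npy Kcnv1 (0.83), Cap2 (0.81) and Phf24 (0.79), and for Nos1 Grm4 (0.81), Trpc7 (0.74) and Abat (0.73). Calb2 had Zic1 (0.9), Tmem255a (0.88) and Trpm3 (0.88), and Th had Kctd12 (0.8), Lhfpl3 (0.8) and Wfs1 (0.77). No member was among the 3 most alike genes of another.

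**Figure D4:**
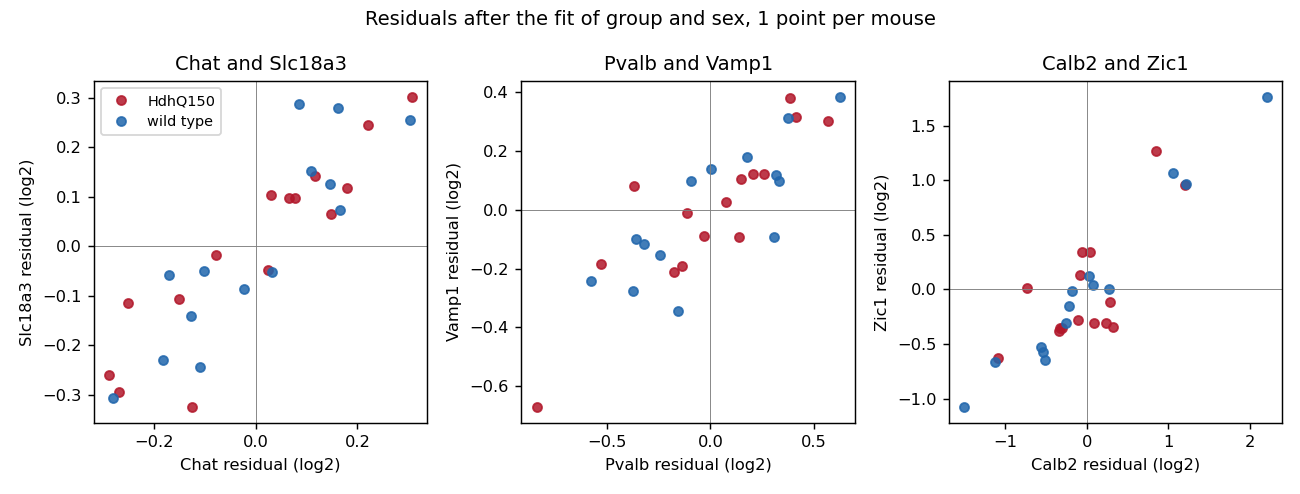
Residuals in log2 after the fit of group and sex for 3 members (horizontal axes) against the gene most alike to each (vertical axes), with 1 point per mouse, HdhQ150 in red and wild type in blue. Pearson r was 0.89 for Chat with Slc18a3, 0.84 for Pvalb with Vamp1 and 0.9 for Calb2 with Zic1.

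Zic1, a zinc finger factor found in septal and thalamic neurons among others, stands on the lists of cholinergic and basal forebrain genes. Its group means were 8.37 ± 0.62, 7.77 ± 0.659 and 8.18 ± 0.4 in HdhQ150 mice and 8.51 ± 0.954, 7.58 ± 0.132 and 8.07 ± 1.18 in wild-type mice at 6, 12 and 18 months (SD, n = 5, 6 and 4 in HdhQ150 and 5, 5 and 4 in wild type). At 18 months its wild-type values reached 9.84, and in the plot of residuals the mice high in Calb2 were also high in Zic1.

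Correlations among the members were computed for all 36 pairs over the 29 mice after each group's mean was subtracted, with 100000 permutations within groups and adjustment over the 36 pairs. Of these, 11 passed, 9 positive and 2 negative. The 3 cholinergic genes moved together: Chat with Slc5a7 at r = 0.76 (Spearman rho 0.79, permutation p 0.00011, adjusted p 0.0018), Chat with Lhx8 at r = 0.74 (rho 0.82, permutation p 0.00018, adjusted p 0.0018) and Slc5a7 with Lhx8 at r = 0.66 (rho 0.72, permutation p 0.00052, adjusted p 0.00374). Without the 2 mice farthest from the median of the first-named gene of the pair these were 0.75, 0.71 and 0.6, with adjusted permutation p up to 0.0156. In HdhQ150 mice alone (n = 15) they were 0.78, 0.76 and 0.64 and in wild-type mice alone (n = 14) 0.79, 0.73 and 0.78. The pairs did not pass the adjusted permutation test in HdhQ150 mice alone (adjusted p 0.0725 to 0.0915) and passed it in wild-type mice alone (adjusted p 0.0427 to 0.0449).

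Nos1 passed with the cholinergic genes. It correlated with Chat at r = 0.61 (rho 0.62, permutation p 0.00071, adjusted p 0.00426), with Lhx8 at 0.61 (rho 0.68, permutation p 0.0002, adjusted p 0.0018) and with Slc5a7 at 0.47 (rho 0.54, permutation p 0.00737, adjusted p 0.0241). With Sst it correlated at r = -0.05 (permutation p 0.799) and with Npy at -0.39 (permutation p 0.062, adjusted p 0.169). Nos1 with Npy was 0.01 in HdhQ150 mice alone (adjusted p 1 by permutation) and -0.72 in wild-type mice alone (adjusted p 0.0523). Th correlated with Lhx8 at 0.75 (rho 0.74, permutation p 0.00013, adjusted p 0.0018), with Chat at 0.63 (rho 0.58, permutation p 0.00163, adjusted p 0.00733) and with Nos1 at 0.55 (rho 0.56, permutation p 0.00398, adjusted p 0.0159). Sst with Npy gave r = 0.43 (rho 0.38, permutation p 0.0606, adjusted p 0.169). Without the 2 farthest mice Slc5a7 with Nos1 (0.53, adjusted p 0.0516) and Chat with Th (0.53, adjusted p 0.0714) no longer passed.

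The negative pairs were Lhx8 with Npy at r = -0.62 (rho -0.47, permutation p 0.00147, adjusted p 0.00733) and Npy with Calb2 at r = -0.64 (rho -0.52, permutation p 0.00441, adjusted p 0.0159). Without the 2 farthest mice they were -0.45 (adjusted permutation p 0.0661) and -0.42 (adjusted p 0.229), and neither passed. Lhx8 with Npy was -0.62 in HdhQ150 mice alone (adjusted p 0.0915) and -0.65 in wild-type mice alone (adjusted p 0.104), by permutation. Npy with Calb2 was -0.11 in HdhQ150 mice alone (adjusted p 0.855) and -0.88 in wild-type mice alone (adjusted p 0.0299), by the same permutation test. No difference between the genotypes in these correlations was tested.

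The members were also set against the marker means. After the fit of group and sex the cortical marker mean correlated with Slc5a7 at r = -0.67, with Lhx8 at -0.65, with Chat at -0.53, with Th at -0.46 and with Nos1 at -0.38, and with Npy at 0.56 and Sst at 0.32, over the 29 arrays. The projection neuron mean correlated with Slc5a7 at 0.69 and with Chat at 0.54. The genes that correlated positively with each other were those lower in mice with more of the cortical markers, and the part of the sampled cells in these correlations was not tested.

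**Figure D5:**
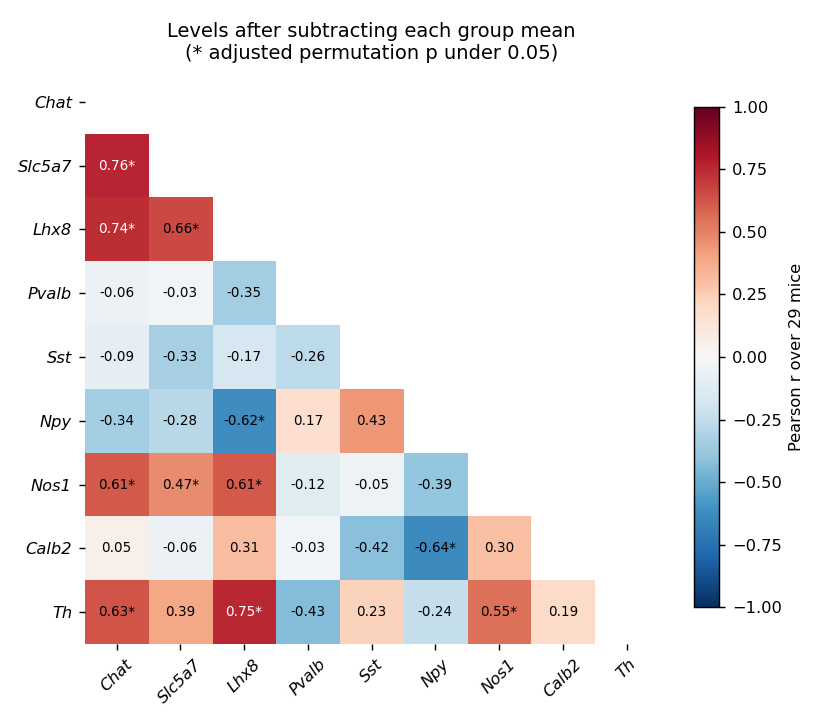
Pearson correlations between the 9 members over 29 mice after each group's mean was subtracted, with colour and printed value for r and an asterisk where the adjusted permutation p was under 0.05. Positive pairs join Chat, Slc5a7, Lhx8, Nos1 and Th, up to 0.76, and the lowest value is -0.64 for Npy with Calb2.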

How the data were processed

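The caudate nucleus of each mouse gave total RNA by TRIzol-chloroform, which was biotin-labelled with an Affymetrix WT kit, per the labels' protocols. The authors deposited log2 values, for which the submitters' processing notes name Affymetrix Expression Console and RMA without versions or options. Of 35556 probe sets, the platform annotation gave 1 gene symbol to 21789, several to 1621 and none to 12146. Of the first, 21698 matched a gene of RefSeq (GRCm38.p6) by Entrez ID. The brightest probe set was kept per gene, which left 19938 genes. Array medians were 6.91 to 7.05. Precision is limited by the number of arrays.

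Groups, sex and mouse numbers came from the labels, so that each replicate is a separate animal. Genes were tested two-sided in R 4.3.3 by limma 3.58.1 (eBayes with trend; 6 group means and labelled sex; 22 residual degrees of freedom), with no filter on dim probe sets, and the fit was tested on simulated data. Correlations used 100000 permutations within groups.

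The 9 members and all lists were chosen with earlier results of these data known. Named genes were the members, the 3 properly named genes most alike to each member, up to 4 genes of each list with the smallest p for genotype averaged over the ages, any list gene past the threshold, Htt and fixed markers of other cells. Some genes of the lists were not analysed here. Alternatives were no sex term, labelled females alone, mouse 1023 entered as male, all probe sets, the brighter 50% of the genes, eBayes without trend, robust eBayes, array weights, median centring, only the groups compared, each mouse left out, mice 1023 and WT-454 left out together, and the cortical marker mean as a covariate.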

Additional observations from a re-analysis of the deposited data

Results flagged for a closer look

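Of 54 sets of values (9 members in 6 groups), 3 held a mouse far from the rest of its group by Dixon's 95% criterion, and chance alone marks about 1 in 20 such sets. Lhx8 in HdhQ150 mice at 18 months stood at 6.44 in mouse 412, with the next mouse at 7.01. That mouse also had the lowest Chat (6.57), Slc5a7 (7.2), Nos1 (8.05) and Th (7) and the highest Pvalb (8.71) of its group. Its cortical marker mean, 0.84, was the highest of the group and its projection neuron mean, -0.73, the lowest. Th in HdhQ150 mice at 6 months stood at 7.15 in mouse 1016, with the next at 7.57. Th in wild-type mice at 12 months stood at 7.89 in mouse WT-454, the array that correlated least with its group, with the next at 7.65.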

How the results depend on the processing

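Between genotypes 0 of 9 members were called at 12 months, at 18 months, averaged over the ages and for each change of the genotype difference under every alternative run. At 6 months the count became 1 (Sst) with array weights and 1 without mice 1023 and WT-454 together, settings that called 6.67% and 4.35% of all genes against 0.0251%, and stayed at 0 with each mouse left out in turn. The age counts moved more. In HdhQ150 mice at 12 against 6 months the count of 4 was 2 with labelled females alone, 5 with array weights, 5 without mice 1023 and WT-454 (Slc5a7 added in both) and 1 with the cortical covariate, and ranged from 2 (without mouse 1003) to 4 with each mouse left out. That 1 was Lhx8, so that all 4 were lost. At 18 against 12 months the HdhQ150 count of 3 was 0 with the cortical covariate and ranged from 1 (without mouse 412) to 4. Calls over all genes fell as well with this covariate, to 211 against 4599 at 12 against 6 months and to 2 against 1154 at 18 against 12 months in HdhQ150 mice. At 18 against 6 months the HdhQ150 count of 1 was 2 with labelled females alone, 2 with the brighter 50% of the genes, 3 with array weights, 3 with the cortical covariate and 2 without mice 1023 and WT-454, and ranged from 1 to 3 (without WT-1011). In wild-type mice at 12 against 6 months the count of 2 was 1 with labelled females alone and ranged from 1 (without WT-454) to 3. At 18 against 12 months the wild-type count of 3 was 1 with all probe sets and 0 with the cortical covariate, and ranged from 0 (without WT-401) to 3. At 18 against 6 months the wild-type count of 0 was 1 with no sex term, 1 with mouse 1023 entered as male, 1 with the cortical covariate and 1 without mice 1023 and WT-454, and ranged from 0 to 1. The causes were not tested. Slc5a7 at 18 against 12 months in wild-type mice turned from -0.52 to 0.019 with the cortical covariate. Of 36 correlations, 11 passed over all mice, 0 in HdhQ150 mice alone, 6 in wild-type mice alone and 7 without the 2 mice farthest from the median, the genotypes alone having fewer mice. Over 117 gene results and 4775 alternatives, 4528 kept their direction and their side of the threshold, 147 kept their side, uncalled in both, with the sign turned, 57 lost a call, 1 lost it with the sign turned and 42 gained one. The mouse numbers differ between groups, and no litter was at hand to pair littermates by, so no paired analysis was run. A further probe set per member could not be tried, since each member has 1.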
